A study of Mus musculus with 32 samples.

Results

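The genes described here encode the proteins of the cytoplasmic ribosome in mouse preimplantation embryos. They were taken by symbol from the GENCODE M21 annotation, as the protein-coding genes named Rpl, Rps or Rplp with their number, with a letter suffix and the named paralogs included, plus Rpsa. In all, 83 of the 55385 genes listed in every RNA library met this rule, of which 51 belong to the large subunit and 32 to the small subunit. The genes Fau, Rpl36al and Rack1, which also encode ribosomal constituents, fall outside the symbol rule and are given separately.

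Each cytoplasmic ribosome holds a single copy of nearly all of these proteins, and cells usually make them in balanced amounts. The large subunit carries the peptidyl transferase centre and the flexible stalk formed by Rplp0, Rplp1 and Rplp2, whereas the small subunit reads the mRNA. The mRNAs of these genes start with a run of pyrimidines, the terminal oligopyrimidine or TOP tract, through which mTORC1 and LARP1 control their translation. Oocytes store ribosomes and maternal mRNAs, and the mouse embryo takes over transcription at zygotic genome activation. The authors divide it into a minor wave, from the late zygote into early 2-cell embryos, and a major wave in late 2-cell embryos.

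Total RNA was sequenced in 16 libraries, as 8 groups of 2 libraries each, and open chromatin by ATAC-seq in 4 groups. All embryos were wild type and came from in vitro fertilization of B6D2F1/J oocytes with B6D2F1/J sperm, both from mice of 6 to 8 weeks. Embryos for the zygote libraries and for those of both 2-cell stages were cultured with A-485 at 10 µM or with DMSO. A-485 inhibits the acetyltransferases CBP and p300. The treatment window was 4 to 20 hours post in vitro fertilization (hpi). The authors place early 2-cell embryos at 20 hpi and zygotes before that, so the zygotes may have been exposed for a shorter time. In a second experiment, late 2-cell embryos were cultured with TSA (trichostatin A), an inhibitor of histone deacetylases, at 50 nM between 8 and 28 hpi, or with DMSO. The late 2-cell A-485 libraries come from embryos that had been washed free of the inhibitor after 20 hpi. The labels do not state whether both libraries of a group came from separate fertilizations, so the p-values measure the spread between these libraries, which may be technical.

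The libraries held between 13206163 and 32585987 expected counts, the fewest in late 2-cell A-485 embryos and the most in A-485-treated zygotes. All 10 oocyte markers were detected in every library, and their summed level was 2415 to 2714 FPKM in zygotes against 599 to 828 FPKM in the DMSO-treated late 2-cell embryos of both experiments. It was 1456 and 1457 FPKM in late 2-cell A-485 embryos and 761 and 791 FPKM in TSA-treated embryos. Markers of cumulus cells summed to 1.67 to 6.99 FPKM in every library, with 2.01 and 2.23 FPKM in late 2-cell controls of the A-485 experiment and 5.55 and 5.85 FPKM after A-485, where 3 of 14 were called higher. Fibroblast markers summed to 0.13 and 0.64 FPKM in those controls and 14.22 and 16.41 FPKM after A-485, nearly all of it Pdgfra (13.94 and 15.94 FPKM), and to 8.07 and 5.51 FPKM after TSA. Their part in the results was not tested. Mean fragment length was 144.9 to 158.1 bases in the 4 libraries of the TSA experiment and 191.4 to 219.5 bases in the other 12. The share of mitochondrially encoded mRNAs in the counts was 1.01% in DMSO-treated zygotes, 2.38% to 2.55% in the DMSO-treated 2-cell groups, 3.69% in TSA-treated embryos and 5.39% in late 2-cell A-485 embryos.

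Among DMSO-treated embryos, the summed level of the 83 genes was lowest at the early 2-cell stage and highest at the late 2-cell stage. FPKM is the number of fragments per transcript length and sequencing depth, so that levels can be compared between genes. In DMSO-treated zygotes the genes summed to 4045 and 3968 FPKM (4007 ± 54.5, SD, n = 2). In DMSO-treated early 2-cell embryos the sum was 3841 and 3597 FPKM (3719 ± 173). Both early 2-cell libraries were below both zygote libraries, by a factor of 1.08 between the means. As a share of all summed FPKM, the planned measure, they were below by a factor of 1.71 (0.497% to 0.291%). The late 2-cell controls of the A-485 experiment were above the zygotes by a factor of 2.97 in summed FPKM and 1.76 as a share. The DMSO-treated late 2-cell libraries of the A-485 experiment held 11583 and 12181 FPKM, and those of the TSA experiment held 12714 and 12840 FPKM.

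A-485-treated zygotes did not lie below their controls, with 4246 and 4234 FPKM. From the early 2-cell stage on, every treated library was below every control of its own stage and experiment. A-485-treated early 2-cell embryos held 1883 and 1973 FPKM, 1.93 times less than their controls. A-485-treated late 2-cell embryos held 2444 and 2098 FPKM, 5.23 times less than theirs, and TSA-treated late 2-cell embryos held 4542 and 4418 FPKM, 2.85 times less. As a share of all summed FPKM, the genes went from 0.873% in late 2-cell controls to 0.116% after A-485, which is 7.5 times less, and from 0.798% to 0.246% after TSA, which is 3.25 times less. As a share of the counts the same ratios were 5.02 and 2.77. With 2 libraries against 2, an exact permutation test cannot give a two-sided p under 0.333, so these sums are described without a test. Large and small subunit genes were lower by factors of 5.32 and 5.09 in late 2-cell A-485 embryos, 2.19 and 1.65 in early 2-cell A-485 embryos and 2.69 and 3.17 after TSA. All levels are relative to the sequenced RNA, so the values give the share of these mRNAs and not their amount per embryo. Fewer cells and less RNA per cell cannot be told apart.

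**Figure D1:**
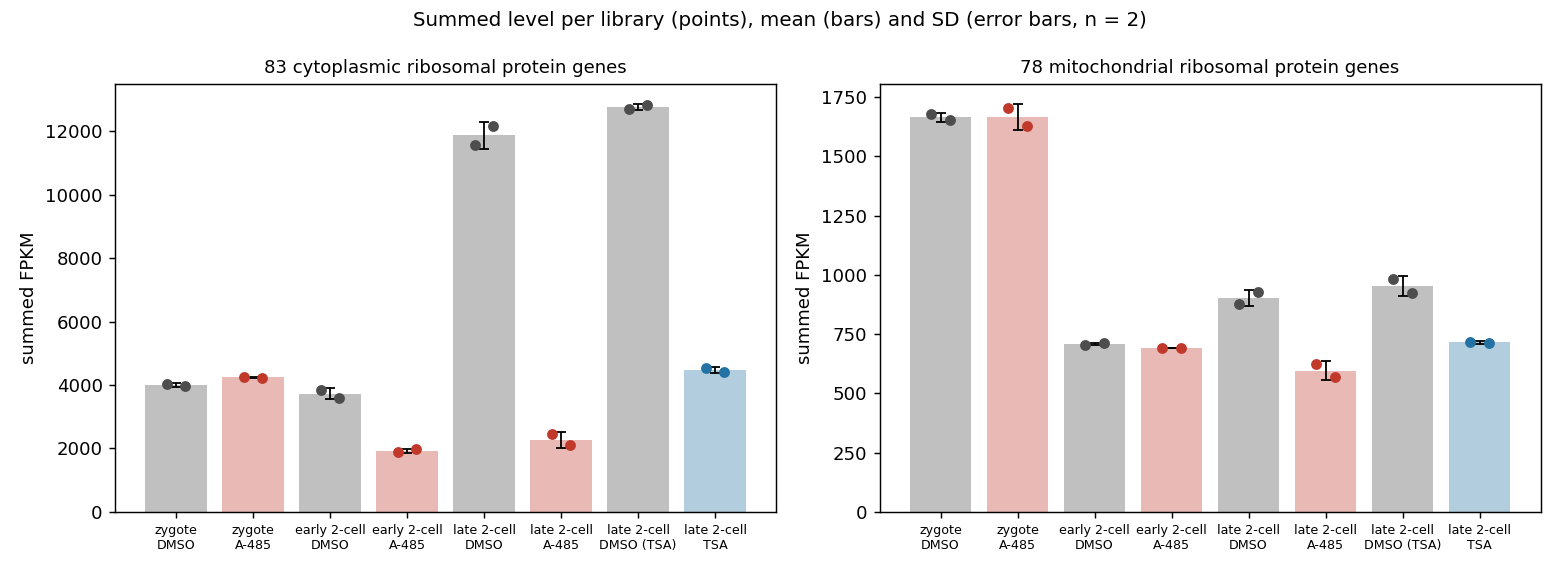
Summed FPKM of the 83 cytoplasmic ribosomal protein genes (left) and of the 78 mitochondrial ribosomal protein genes (right) in each of the 16 libraries. Points are libraries, bars are means and error bars are SD (n = 2). The cytoplasmic genes sum to 2098 and 2444 FPKM in late 2-cell A-485 embryos against 11583 and 12181 FPKM in their controls, while the mitochondrial genes are highest in zygotes.

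The 78 nuclear genes for the mitochondrial ribosome, which works inside mitochondria and has its own set of proteins, followed another course. They summed to 1665 ± 19.3 FPKM in DMSO-treated zygotes, 709 ± 5.01 FPKM in early 2-cell controls and 903 ± 34.4 FPKM in the late 2-cell controls of the A-485 experiment. After A-485 their sum was 1.02 times lower at early 2-cell and 1.51 times lower at late 2-cell, and after TSA it was 1.33 times lower.

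The genes were far less even in zygotes than later. In DMSO-treated zygotes the mean levels ran from 0.06 FPKM for Rpl3l to 319 FPKM for Rps15a, and the upper quartile was 6.66 times the lower. The same ratio of quartiles was 3.28 in early 2-cell controls and 2.41 in late 2-cell controls of the A-485 experiment, where 81 of the 83 genes had at least 10 FPKM, against 59 in zygotes. The highest genes in DMSO-treated zygotes by FPKM were Rps15a, Rpl17, Rpl23a, Rps24 and Rpl4, which together made up 31.2% of the summed level. The effective transcript length assigned to Rps15a was only 131 and 137 bases there. By counts Rps15a was below Rpl17, at 1291 and 1245 against 7953 and 7450. In the late 2-cell controls the highest genes were Rplp1 at 667 FPKM, Rplp2 at 639 FPKM, Rpl41 at 575 FPKM, Rps15a and Rpl26. Across the 83 genes, the levels of DMSO-treated zygotes and late 2-cell controls had a Spearman rho of 0.47 (Pearson r of log2 values 0.53), while both sets of late 2-cell controls had a rho of 0.93. A-485-treated and DMSO-treated zygotes had a rho of 0.99. These correlations are across genes, which share libraries and are not independent replicates.

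**Figure D2:**
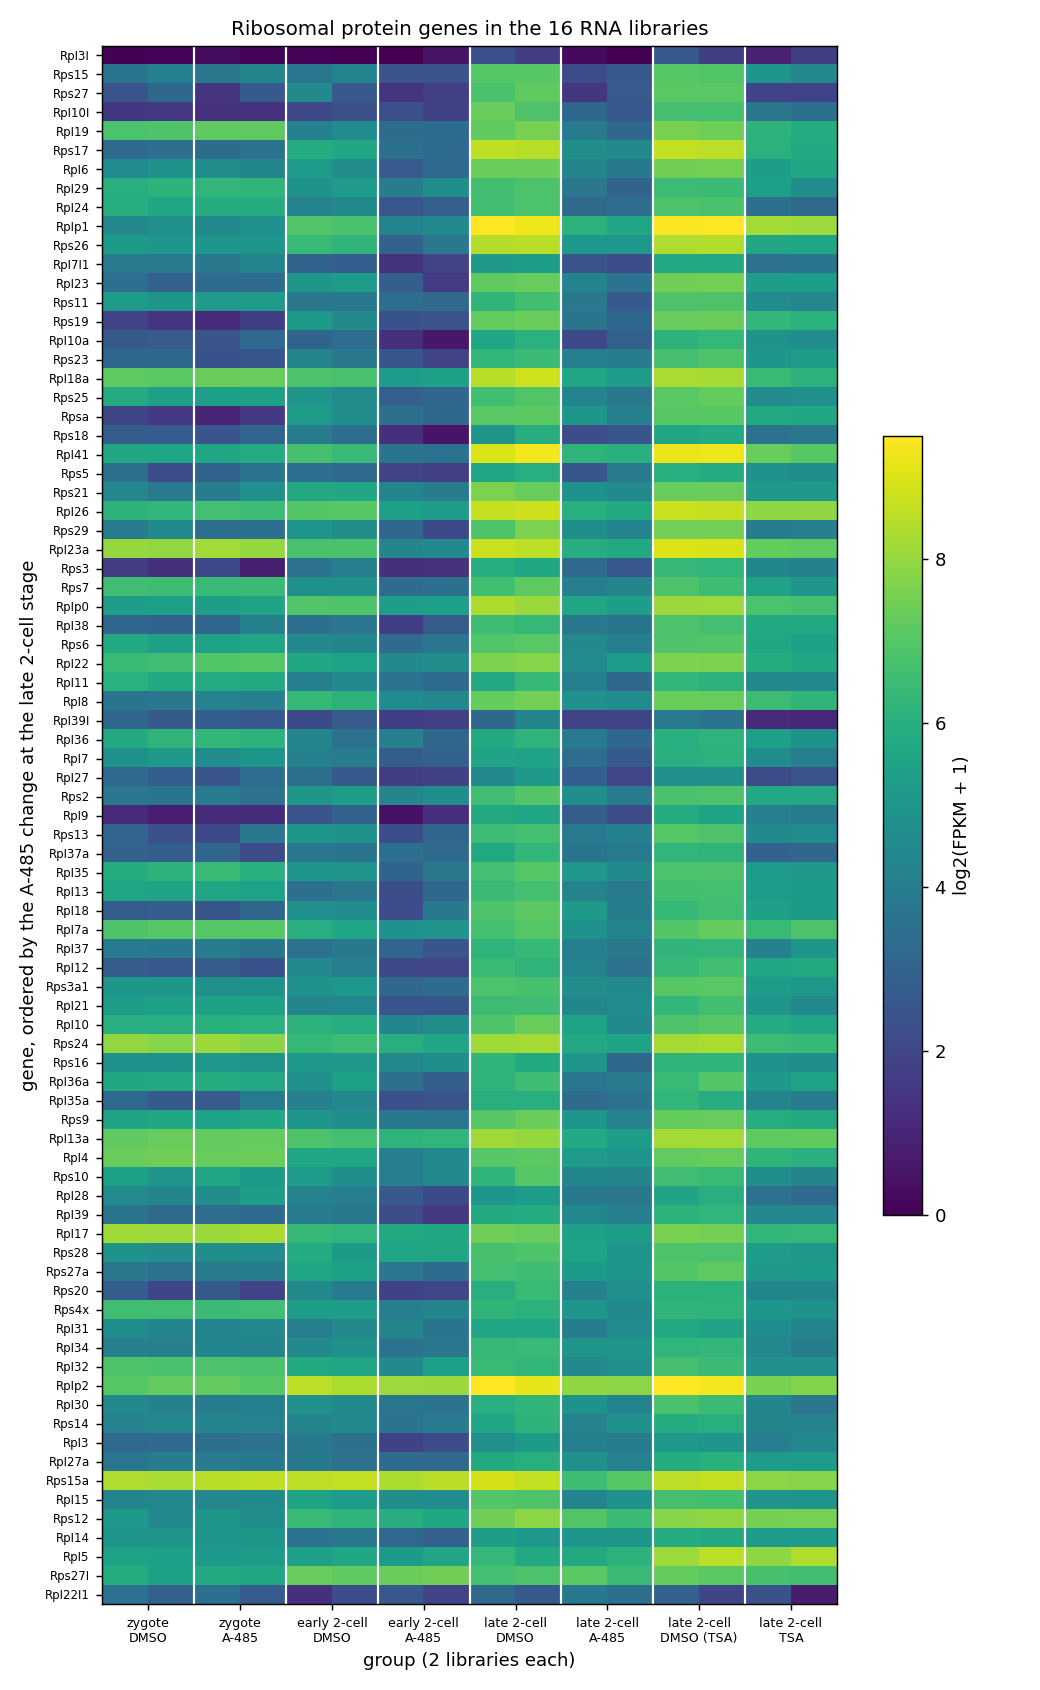
Level of 82 of the 83 genes in the 16 libraries, as log2(FPKM + 1), with genes ordered by their fitted change in late 2-cell A-485 embryos and white lines between groups of 2 libraries. The 2 columns of late 2-cell A-485 embryos are darker than those of their controls for nearly all genes, the exceptions lying at the bottom with Rpl5, Rps27l and Rpl22l1.

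The first comparison asks how these mRNAs changed from the zygote to the late 2-cell embryo without inhibitor. Between DMSO-treated zygotes and the late 2-cell controls of the A-485 experiment, 61 of the 83 genes were called higher and 1 was called lower. A call needed an adjusted p under 0.05 in edgeR's quasi-likelihood test, at least a 2-fold change and, on average, 1 FPKM or more in 1 of the groups. Of all 20253 genes tested, 19.7% were called higher and 19.7% were called lower. The median log2 fold change of the 83 genes was 1.84, against -0.06 for all tested genes that averaged 1 FPKM or more. Without the fold cutoff 72 genes rose, against 24.4% of all genes, and 3 fell, against 25.2%. When the libraries were scaled to the mitochondrially encoded mRNAs instead, which moved the median of all genes to -1.36, 36 genes were called higher and 7 lower, with a median of 0.54.

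The largest rises were of genes that were scarce in zygotes. Rpsa, which encodes the laminin receptor protein of the small subunit, was at 2.93 and 2.09 FPKM in zygotes and at 134.9 and 135.9 FPKM in late 2-cell controls, a log2 fold change of 6.02 ± 0.21 (SE, adjusted p = 1.46e-09, edgeR). Rps19, a small subunit protein mutated in Diamond-Blackfan anaemia, went from 2.91 and 1.78 to 147.5 and 160.3 FPKM (log2 5.54 ± 0.19). Rpl9 went from 1.22 and 0.72 to 53.1 and 48.4 FPKM (log2 5.81 ± 0.30). The largest fitted rise was of Rpl10l, the intronless paralog of the X-linked Rpl10, from 1.88 and 1.99 to 155.8 and 113.2 FPKM (log2 6.16 ± 0.23). In each of these genes every late 2-cell library lay above every zygote library.

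Rpl17, a protein near the exit of the peptide tunnel, was the single gene called lower. It was at 286.6 and 273.4 FPKM in zygotes, 79.0 and 76.3 FPKM in early 2-cell controls and 171.4 and 155.4 FPKM in late 2-cell controls (log2 -1.32 ± 0.11 from zygote to late 2-cell). With the effective length of each library as an offset its change was -0.73, short of the fold cutoff. Rps4x and Rpl4 fell by 0.40 and 0.29 on the log2 scale, with adjusted p of 0.025 and 0.030 (edgeR), and they passed in 11 and 9 of 17 alternative settings.

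**Figure D3:**
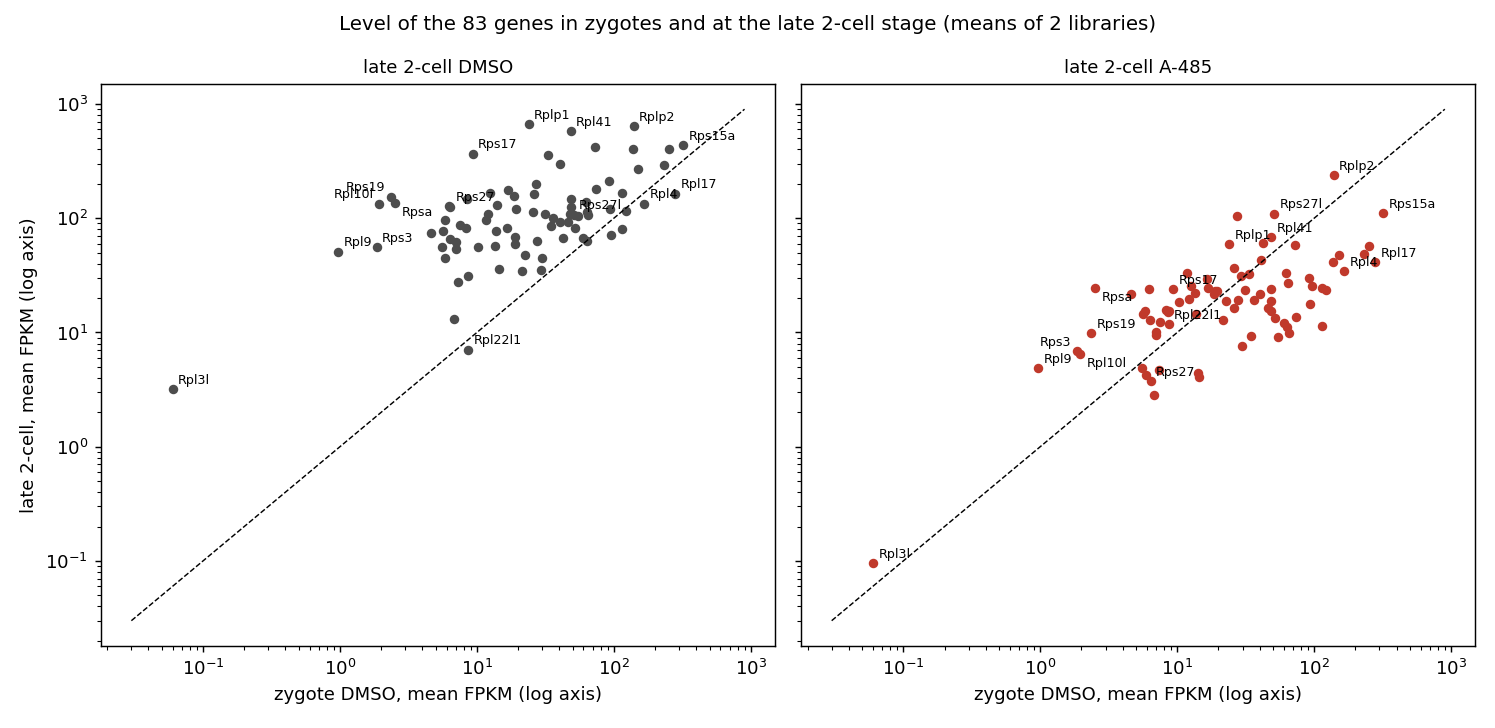
Mean FPKM of each of the 83 genes in DMSO-treated zygotes (x axis, log) against late 2-cell controls of the A-485 experiment (left, y axis, log) and late 2-cell A-485 embryos (right), each point the mean of 2 libraries, with the dashed line at equal levels. On the left nearly all genes lie above the line, with Rpsa, Rps19, Rpl9 and Rpl10l farthest from it apart from Rpl3l, while on the right the points lie on both sides of the line.

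The course through the early 2-cell stage split the genes. In a comparison added after the data had been seen, 26 of 82 tested genes were called higher in DMSO-treated early 2-cell embryos than in zygotes, against 11.2% of all genes, and 19 were called lower, against 14.9%. Rpsa (log2 3.73 ± 0.26), Rps19 (3.34 ± 0.29), Rpl9 (2.89 ± 0.52) and Rpl8 (2.67 ± 0.17) rose most. Rpl19 (-2.51 ± 0.15), Rpl36 (-1.96 ± 0.32), Rpl13 (-1.92 ± 0.20) and Rpl17 (-1.91 ± 0.09) fell most. The members of the stalk rose together: Rplp0 went from 39.0 and 42.2 to 120.7 and 117.5 FPKM, Rplp1 from 21.2 and 26.6 to 120.5 and 108.0 FPKM, and Rplp2 from 130.8 and 147.6 to 376.4 and 321.0 FPKM. With mitochondrially encoded mRNAs as the scale, which moved the median of all genes to -1.45, the median of the set went from 0.34 to -0.99, with 7 genes called higher and 41 lower. Relative to all genes the set stayed above by 0.46.

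From early to late 2-cell controls nearly the whole set rose. Of the 83 genes, 78 were called higher and none lower (edgeR, no gene at an unadjusted p under 0.05 and none called by DESeq2), against 19.3% and 10.3% of the 21141 genes tested. Without the fold cutoff 80 genes passed, against 23.8% of all genes, and the median log2 fold change was 2.25 beside 0.09 for all genes that averaged 1 FPKM or more. This comparison used the late 2-cell controls of the TSA experiment, in which most of the 83 genes were above the other late 2-cell controls. Fragments were also shorter in the libraries of the TSA experiment, and the part of either was not tested. Rpl10l (3.26 and 4.19 to 104.0 and 99.3 FPKM, log2 4.87 ± 0.16), Rps27 (22.3 and 5.25 to 132.7 and 134.5 FPKM, log2 3.71 ± 0.40) and Rpl38 (10.2 and 12.5 to 113.1 and 99.5 FPKM, log2 3.52 ± 0.24) rose most among genes with more than a few counts. The genes that did not pass were Rps15a, at 379.5 and 400.0 FPKM in early 2-cell controls against 378.0 and 404.9 FPKM in late 2-cell controls, Rps27l and Rpl22l1.

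A-485 left these mRNAs near their control levels in zygotes. None of the 83 genes passed an adjusted p of 0.05 in either direction (edgeR, and none with DESeq2), where 0.011% of all 18258 genes rose and 0.0712% fell. At an unadjusted p under 0.05, 4 of the 83 genes were higher and 2 lower, beside 1073 of all 18258 genes in either direction. The median log2 fold change was 0.02 beside 0.01 for all genes, and Rps15a was at 326.4 and 312.1 FPKM in DMSO-treated and at 356.9 and 381.2 FPKM in A-485-treated zygotes.

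At the early 2-cell stage 48 of the 82 genes tested were called lower after A-485 and none higher (edgeR, with 0 higher at an unadjusted p under 0.05 and 0 by DESeq2), against 7.9% and 0.402% of the 20872 genes tested. Without the fold cutoff 55 fell, against 9.72% of all genes, and the median log2 fold change was -1.37, beside -0.01 for all genes that averaged 1 FPKM or more. The largest falls were of Rps18 (14.2 and 9.75 to 1.48 and 0.44 FPKM, log2 -3.61 ± 0.62), Rpl10a (7.45 and 9.56 to 1.49 and 0.51 FPKM, log2 -3.03 ± 0.46), Rps26 (87.1 and 73.3 to 7.22 and 12.6 FPKM, log2 -2.98 ± 0.23) and Rpl23 (31.7 and 37.0 to 6.43 and 2.22 FPKM, log2 -2.97 ± 0.43). Reads of Rps18 and Rpl10a are partly shared with near-identical copies. The authors' counting gave their counts a posterior standard deviation of up to 38.7% and 30.7% of the count in a single library. Rpl41, the shortest ribosomal protein, fell from 105.5 and 83.8 to 12.02 and 10.6 FPKM (log2 -2.82 ± 0.23, adjusted p = 2.82e-06, edgeR).

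Within the stalk the values of the 3 mRNAs lay apart, a difference that was not tested. Rplp1 fell from 120.5 and 108.0 to 18.6 and 21.6 FPKM and Rplp0 from 120.7 and 117.5 to 38.3 and 40.0 FPKM, whereas Rplp2 was at 376.4 and 321.0 FPKM in controls and 278.8 and 268.9 FPKM after A-485 (log2 -0.30, adjusted p = 0.13, edgeR). The genes with the highest remaining levels were Rps15a (321.9 and 366.9 FPKM against 379.5 and 400.0 FPKM in controls), Rplp2 and Rps27l (164.9 and 172.2 FPKM against 158.1 and 144.9 FPKM). Together with Rpl13a and Rps12 they held 47.5% of the summed level of the set, where the 5 highest genes of the controls held 30.6%. The effective length assigned to Rps15a was 136 and 125 bases after A-485. By counts Rps15a was below Rplp2 there, at 978 and 1096 against 1566 and 1828. Summed markers of 2-cell transcription were 414.8 and 353 FPKM in early 2-cell controls and 7.87 and 6.58 FPKM after A-485. The profile of A-485-treated early 2-cell embryos across the 83 genes had a rho of 0.74 with that of DMSO-treated zygotes, where the DMSO-treated early 2-cell profile had 0.62.

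In late 2-cell embryos almost the whole set was lower after A-485. The controls are those used above against zygotes, so these comparisons share libraries. Of the 83 genes 79 were called lower and none higher (edgeR, with 1 higher at an unadjusted p under 0.05 and 0 by DESeq2), against 16.8% and 10.5% of the 22822 genes tested, and 80 fell without the fold cutoff, against 20.2% of all genes. The median log2 fold change was -2.74, beside 0.02 for all genes that averaged 1 FPKM or more. In 80 genes (96.4%) both treated libraries lay below both controls, as they did in 33.2% of the 16493 genes that averaged 1 FPKM or more. Rps15, a small subunit protein at the decoding site, fell from 127.9 and 131.0 to 3.49 and 5.33 FPKM (log2 -5.13 ± 0.31, adjusted p = 1.14e-07, edgeR). Rps27 fell from 108.2 and 144.7 to 1.88 and 5.59 FPKM (log2 -4.64 ± 0.53), Rpl10l from 155.8 and 113.2 to 8.00 and 4.96 FPKM (log2 -4.61 ± 0.27) and Rpl19 from 145.2 and 187.4 to 14.7 and 8.07 FPKM (log2 -4.29 ± 0.25).

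The most abundant genes of the late 2-cell controls were among those that fell. Rplp1 went from 712.4 and 621.6 to 67.4 and 51.4 FPKM, Rpl41 from 504.0 and 645.1 to 72.5 and 64.7 FPKM, and Rplp2 from 713.4 and 564.9 to 244.3 and 230.2 FPKM, which left Rplp2 the highest gene of the set. Genes with well known roles fell as well: Rps6, the phosphorylation target of S6 kinase, from 119.7 and 132.7 to 21.2 and 16.3 FPKM, Rps3, at the mRNA entry site, from 60.3 and 50.6 to 8.67 and 5.03 FPKM, Rpsa from 134.9 and 135.9 to 31.8 and 17.3 FPKM, Rps27a, which is made as a fusion with ubiquitin, from 100.9 and 92.3 to 35.3 and 30.8 FPKM, and Rps2 from 95.2 and 124.6 to 24.8 and 14.2 FPKM. Of the proteins that bind 5S rRNA, Rpl11 fell from 52.3 and 81.0 to 16.1 and 7.96 FPKM.

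The 3 genes that did not pass the test at the late 2-cell stage were Rpl22l1, Rpl5 and Rps27l. Rpl22l1, the paralog of Rpl22, was at 8.68 and 5.48 FPKM in controls and 13.3 and 10.4 FPKM after A-485 (log2 1.22, adjusted p = 0.055, edgeR), and it stayed short of the threshold in 13 of 16 alternative settings. Its parent Rpl22 fell from 204.3 and 220.6 to 23.2 and 36.5 FPKM. Rps27l was at 100.7 and 113.2 FPKM against 132.0 and 87.5 FPKM (log2 -0.24, adjusted p = 0.41, edgeR) while its parent Rps27 fell. Rpl5, the other protein that binds 5S rRNA, was at 80.2 and 54.4 FPKM against 53.6 and 69.0 FPKM, so that its groups overlapped. Rps27l and Rpl5 passed as lower with mitochondrially encoded mRNAs as the scale, which moved the median of all genes to -0.96 and the number of all genes called lower from 3824 to 6874.

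The effective transcript lengths assigned to several genes differed between treated and control libraries, most for Rpl15 and Rps15a. The effective length assigned to Rpl15 was 503 and 547 bases in the late 2-cell controls and 1551 and 1358 bases after A-485, and that of Rps15a was 113 and 130 bases against 288 and 220 bases. Their fitted log2 fold change was -1.13 for each from counts and -2.60 and -2.19 with the length of each library as an offset. In FPKM, Rpl15 went from 124.0 and 116.9 to 18.6 and 27.3. Rps19 (491 and 505 bases to 970 and 832), Rpl9 (543 and 541 to 907 and 1069) and Rpl22l1 (421 and 408 to 630 and 717) also had longer effective lengths after A-485, and with the offset their changes were -4.16, -3.60 and 0.53.

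**Figure D4:**
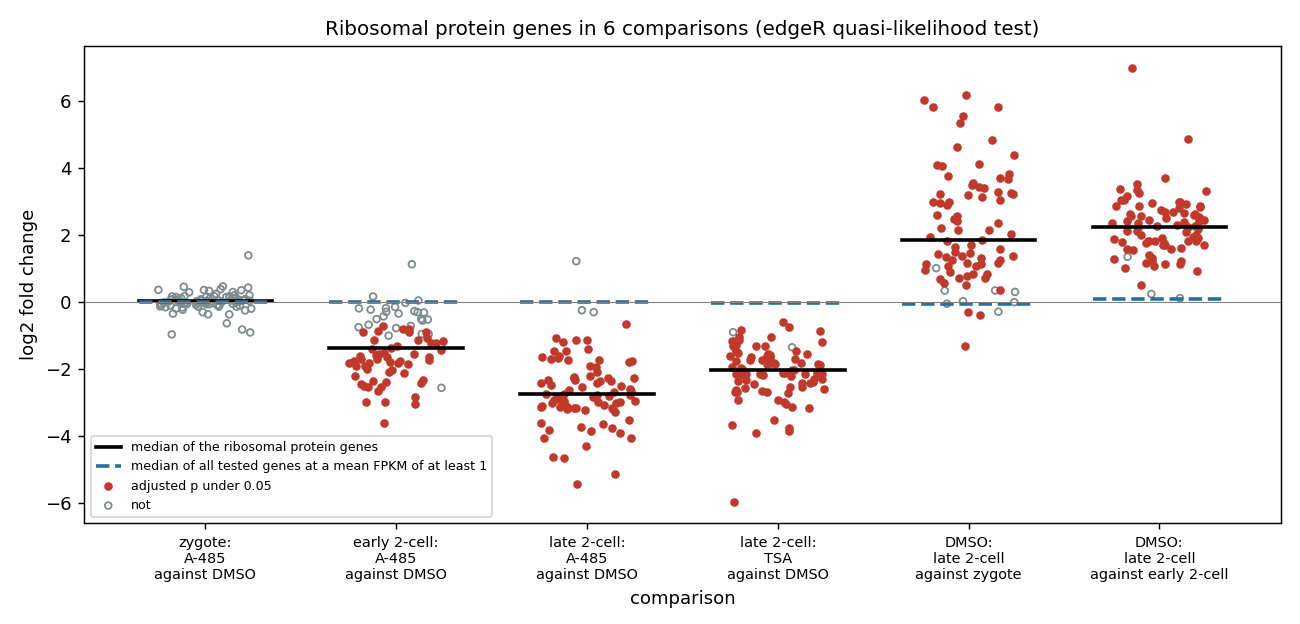
Fitted log2 fold change of each ribosomal protein gene (points) in the 6 comparisons, with the median of the set (black line) and of all tested genes that averaged 1 FPKM or more (dashed blue line). Filled points have an adjusted p under 0.05 (edgeR). The set lies around 0 in A-485-treated zygotes and its medians are -1.37, -2.74 and -2.04 in treated early 2-cell, late 2-cell A-485 and TSA-treated embryos.

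The A-485 effect was more negative at the later stage in tests of the difference itself. Exposure before collection may have been shorter in zygotes, and late 2-cell embryos had been washed, so stage cannot be told apart from exposure. Between zygotes and late 2-cell embryos, 79 of the 83 genes had a more negative effect at the late 2-cell stage (interaction term in edgeR over 8 libraries, adjusted p under 0.05), against 14.4% of all genes. Rps15 differed by -5.24 ± 0.46, Rpl19 by -4.52 ± 0.25 and Rpl10l by -4.24 ± 0.37 on the log2 scale. At late against early 2-cell 44 genes had a more negative late effect, against 9.82% of all genes, and none had a less negative one (edgeR, with 0 at an unadjusted p under 0.05 and 0 by DESeq2), with Rpl10l (-4.38 ± 0.38), Rps15 (-3.35 ± 0.48) and Rpl19 (-3.08 ± 0.32) the farthest apart among genes with more than a few counts. Across 82 genes the early and late A-485 changes, which share no library, had a rho of 0.55.

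Late 2-cell A-485 embryos were not uniformly above or below zygotes. In a comparison added after the data had been seen, 14 of the 83 genes were called higher in late 2-cell A-485 embryos than in A-485-treated zygotes, against 19.6% of all genes, and 31 were called lower, against 18.1%, with a median log2 fold change of -0.26. Rpsa (1.04 and 2.03 to 31.8 and 17.3 FPKM, log2 3.32 ± 0.39), Rpl9 (3.23 ± 0.64), Rps19 (2.72 ± 0.53) and Rps20 (2.40 ± 0.28) were the farthest above, and Rpl19 (-3.91 ± 0.20), Rpl17 (-3.16 ± 0.12), Rpl29 (-3.05 ± 0.22) and Rpl36 (-2.88 ± 0.36) the farthest below. With mitochondrially encoded mRNAs as the scale, which moved the median of all genes to -2.60, no gene was called higher and 72 were called lower. The set's median was then below that of all genes by 0.31.

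After TSA nearly the whole set was lower too. These controls also serve the comparison with early 2-cell embryos. Of the 83 genes 77 were called lower and none higher (edgeR, with 0 higher at an unadjusted p under 0.05 and 0 by DESeq2), against 13.9% and 13.8% of the 23429 genes tested, and 81 fell without the fold cutoff, against 20.8% of all genes. The median log2 fold change was -2.04, beside -0.03 for all genes that averaged 1 FPKM or more. Rps27 fell from 132.7 and 134.5 to 2.81 and 2.80 FPKM (log2 -5.94 ± 0.25, adjusted p = 2.26e-08, edgeR), the largest fall after TSA. Rpl24 fell from 114.8 and 109.7 to 10.4 and 8.67 FPKM (log2 -3.90 ± 0.15), Rps29, a zinc finger protein of the small subunit, from 179.7 and 181.9 to 15.2 and 16.9 FPKM (log2 -3.84 ± 0.17), and Rpl39l, the paralog of Rpl39, from 14.6 and 11.4 to 1.24 and 1.09 FPKM (log2 -3.75 ± 0.36). Rpl22l1 (6.60 and 2.96 to 4.08 and 0.71 FPKM) and Rpl3l did not pass. Summed markers of red blood cells were 44.6 and 46.8 FPKM in the TSA-treated libraries and at most 4.71 FPKM in all others, with 3 of 7 listed genes detected, and their part in the result was not tested.

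The TSA and A-485 effects at the late 2-cell stage differed in size for 40 genes. The A-485 effect was more negative for 38 genes, against 12.5% of all genes, and less negative for 2, against 4.31% (interaction in edgeR). Rps15 was lowered more by A-485 (-5.13 against -2.63, difference -2.61 ± 0.35), as were Rpl19 (difference -2.58 ± 0.26), Rplp1 (-2.18 ± 0.18) and Rpl29 (-2.07 ± 0.33). Rps20 (difference 0.69 ± 0.23) and Rpl30 (1.33 ± 0.37) were lowered more by TSA, but neither held in all alternative settings. Over the 83 genes both effects, which have separate controls, had a rho of 0.44. Dose, exposure and fragment length all differed between these experiments, and the inhibitor cannot be told apart from the experiment.

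**Figure D5:**
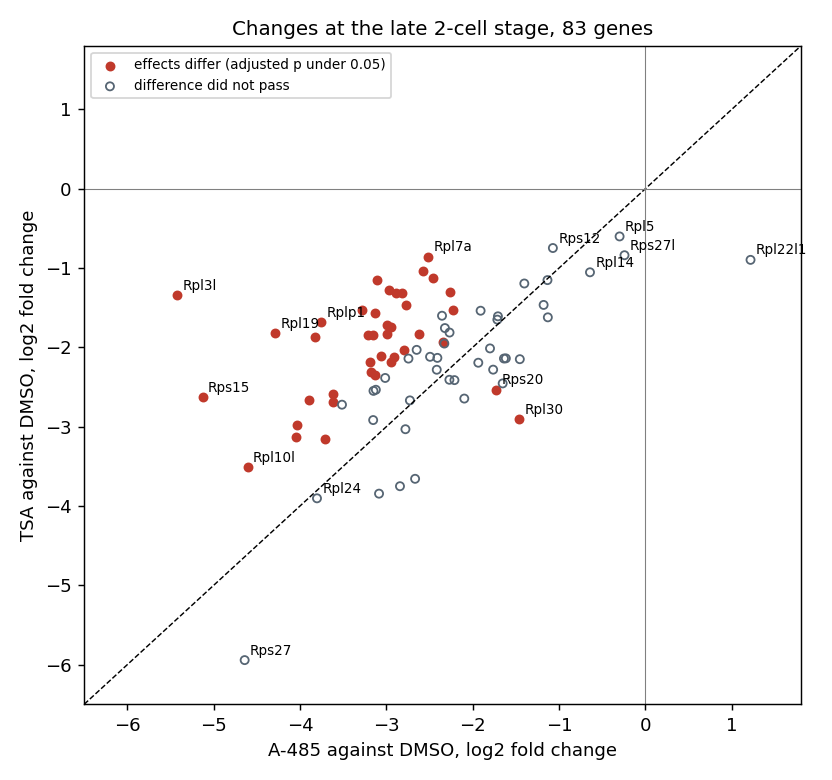
Fitted log2 fold change of each of the 83 genes in late 2-cell embryos after A-485 (x axis) and after TSA (y axis), each against its own DMSO controls, with the dashed line at equal effects. Filled points are the 40 genes whose effects differed (interaction, adjusted p under 0.05). All genes lie at negative values on both axes except Rpl22l1, which is positive on the A-485 axis.

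Rpl5 differed between the late 2-cell controls of the 2 experiments. It was at 80.2 and 54.4 FPKM in those of the A-485 experiment and at 276.1 and 372.4 FPKM in those of the TSA experiment, a log2 fold change of 2.28 ± 0.20 and the only member called between these control sets, where 245 of all 20647 genes were called higher, in a comparison added after the data had been seen. TSA-treated embryos held 241.2 and 330.1 FPKM of Rpl5. Relative to the controls of the A-485 experiment, 75 of the 83 genes had a positive log2 change in those of the TSA experiment. The quartiles were 0.13 and 0.40, beside a median of 0.0035 for all genes that averaged 1 FPKM or more. At an unadjusted p under 0.05 (edgeR) 32 of the 83 were higher and 1 lower, beside 2777 of all 20647 genes in either direction. The 3 small nucleolar RNA (snoRNA) genes inside Rpl5, of which Snord21 is one, had 611.5 and 471.8 counts in the former controls and 3830 and 5260 in the latter, and their part in the level of Rpl5 was not tested. Counts of snoRNAs in other members were higher in the latter controls too, such as the 4 in Rpl13a (119 and 143 against 906 and 1413), although Rpl13a itself was not called. In all, 30 of the 83 genes (36.1%) hold snoRNA genes on their own strand, 58 in all. The median log2 change in late 2-cell A-485 embryos was -2.41 for these 30 genes and -2.92 for the other 53, and after TSA it was -2.12 and -2.03.

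The named paralogs had levels of their own. Rpl3l, known from striated muscle, had 1 and 2 counts in DMSO-treated zygotes, 81 and 47 in late 2-cell controls of the A-485 experiment, 2 and 0 after A-485 there, 119 and 63 in the controls of the TSA experiment and 16 and 52 after TSA. By summed counts over library size it was 42.58 times higher in those controls than after A-485 (95% exact interval 11.55 to 355.4) and 59.74 times higher than in zygotes (19.99 to 293.5), intervals that cover counting error only. Its parent Rpl3 fell from 26.6 and 35.4 to 16.3 and 14.4 FPKM after A-485. Rpl7l1 fell from 33.8 and 37.8 to 4.39 and 3.69 FPKM after A-485 and Rpl39l from 7.97 and 18.4 to 2.86 and 2.86 FPKM, and Rpl39l passed in 15 of 16 alternative settings. Rps27l was the paralog with the highest level, at 158.1 and 144.9 FPKM in early 2-cell controls, where Rps27 had 22.3 and 5.25 FPKM.

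Rpl36al (log2 -3.28), Fau (-2.93) and Rack1 (-2.21), which lie outside the symbol rule, fell in late 2-cell A-485 embryos, and each also fell after TSA (-2.12, -2.10 and -2.45). Of 15 genes for chaperones, importers and maturation factors of the subunits, 11 fell in late 2-cell A-485 embryos and 12 after TSA, with none higher in either, where 20.2% and 20.8% of all genes fell. Those with the largest changes after A-485 were Grwd1 (-4.66), a chaperone of Rpl3, Rrs1 (-3.53) and Eif6 (-3.13), which keeps free large subunits from joining small ones, and Lsg1 (-3.31), the GTPase that releases an export adaptor. Of 18 further mRNAs with a TOP tract, 16 fell after A-485 and 16 after TSA, among them Pabpc1 (-3.57 and -2.23), the poly(A) binding protein, and the elongation factor Eef2 (-3.34 after A-485). At the early 2-cell stage 5 of these 18 fell after A-485, with Pabpc1 at -3.24, where 9.72% of all genes fell.

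Of 20 genes for the mTORC1 pathway, LARP1 and factors known to bind ribosomal protein promoters, 3 rose and 12 fell in late 2-cell A-485 embryos, and the counts were the same after TSA, beside 13.7% of all genes higher and 20.2% lower after A-485 and 17.1% and 20.8% after TSA. Larp1 (-3.44 after A-485 and -3.43 after TSA) and Gabpa (-3.13 and -2.63), an ETS factor, fell in both, and Mycn rose after TSA (2.84). Of the 78 mitochondrial ribosomal protein genes 3 rose and 27 fell in late 2-cell A-485 embryos, with a median of -0.63, and 2 rose and 32 fell after TSA, with a median of -0.53, against the same shares of all genes and medians of 0.02 and -0.03 over genes averaging 1 FPKM or more.

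Open chromatin at the promoters was given as 1 list of ATAC-seq peaks per stage and treatment, called over both replicates. Differences between lists therefore cannot be set against a spread between replicates. In DMSO-treated late 1-cell embryos 38 of the 83 genes (45.8%) had a peak within 1 kb of a transcript start, beside 25.6% of all 21231 protein-coding genes. In A-485-treated late 1-cell embryos 49 (59.0%) had one, beside 24.4%. At the early 2-cell stage the counts were 62 (74.7%, beside 30.2%) in DMSO-treated and 67 (80.7%, beside 40.1%) in A-485-treated embryos. Of the 78 mitochondrial ribosomal protein genes 42.3% had such a peak in each late 1-cell list. Their shares at early 2-cell were 48.7% (DMSO) and 69.2% (A-485). Of the genes with an early 2-cell peak, 55 were in both lists, which is 88.7% of the DMSO list and 82.1% of the A-485 list. The lists held 10214, 7094, 27693 and 13712 distinct peaks. With the 7094 strongest peaks taken from each, the counts were 30, 49, 21 and 47 genes. Of all protein-coding genes 20.95%, 24.36%, 13.8% and 27.41% then had a peak. Of the mitochondrial ribosomal protein genes 34.62%, 42.31%, 20.51% and 46.15% did. At this setting the early 2-cell DMSO count was below the late 1-cell DMSO count in the set and in all genes alike.

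Peak enrichment at single promoters varied. The promoter of Rpl10l had a peak in all 4 lists, with a fold enrichment of 5.74 and 6.83 at late 1-cell and 7.96 and 9.23 at early 2-cell in DMSO- and A-485-treated embryos, although its mRNA was at 1.88 to 4.19 FPKM in DMSO-treated embryos of the zygote and early 2-cell stage. Rps27l had 8.70 and 11.7 at early 2-cell. Rps27 and Rpl3l had no peak in any list. The 62 genes with an early 2-cell DMSO peak and the 21 without had a median log2 change after A-485 of -1.37 and -1.45 at that stage. Split by the late 1-cell DMSO peak instead, the medians were -1.11 in the 38 genes with a peak and -1.67 in the 45 without.

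RefSeq entries of GRCm38.p6 gave promoter windows for 63 of the 83 genes. A run of at least 7 pyrimidines (C or T on the coding strand) touched the 10 bases on either side of the annotated start in 31 of these 63 (49.2%), beside 19.3% of 16513 promoters of all genes and 17.4% of those of mitochondrial ribosomal protein genes. Early 2-cell A-485 changes had a median of -0.95 in the 31 genes with such a run and of -1.64 in the 32 without. The motif CCGGAAG, the core of an ETS site, was found on either strand between 250 bases before and 50 after the start in 26 of the 63 (41.3%, beside 12.3% of all), GGGCGG, a GC box, in 38 (60.3%, beside 47.9%), AAGATGGC, as bound by YY1, in 5 (7.94%, beside 3.27%) and TATAAA in 6 (9.52%, beside 12.9%). In the 69 promoters of mitochondrial ribosomal protein genes these motifs were found in 34.8%, 49.3%, 17.4% and 5.80%, in the same order. Such matches are letters in a window and were not tested for binding.

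The 30 bases around the annotated start are shown for genes that the results turn on, 5′ to 3′ on the coding strand, with the longest pyrimidine run at the start in capitals and the annotated start at the 16th base. They were picked after the values were seen, to show windows with and without a run of 7 or more, and do not stand for the set. Rplp2, Rps15a, Rps27l, Rpl22l1 and Rpl39l have such a run, and Rplp0, Rpl41, Rps3, Rpsa and Rpl10l have shorter ones. Among genes with shorter runs, Rpl10l, with a run of 5, and Rpl5, with a run of 3, did not pass the early 2-cell A-485 test. Whether run length goes with that change was not tested. Positions are chr7:141447636-141447665 (Rplp2, plus strand), chr7:118116133-118116162 (Rps15a, minus), chr9:66946071-66946100 (Rps27l, plus), chr3:28805493-28805522 (Rpl22l1, plus), chr16:10170213-10170242 (Rpl39l, plus), chr5:115559452-115559481 (Rplp0, plus), chr10:128549154-128549183 (Rpl41, minus), chr7:99483695-99483724 (Rps3, minus), chr9:120127751-120127780 (Rpsa, plus) and chr12:66284387-66284416 (Rpl10l, minus).
Rplp2: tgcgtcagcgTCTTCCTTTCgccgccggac
Rps15a: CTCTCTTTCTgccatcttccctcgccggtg
Rps27l: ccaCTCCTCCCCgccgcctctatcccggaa
Rpl22l1: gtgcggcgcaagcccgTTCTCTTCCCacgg
Rpl39l: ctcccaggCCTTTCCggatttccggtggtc
Rplp0: gTCTTCgggtttcgaggaccgcctggttct
Rpl41: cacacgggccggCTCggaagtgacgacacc
Rps3: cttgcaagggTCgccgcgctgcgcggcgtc
Rpsa: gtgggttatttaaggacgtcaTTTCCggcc
Rpl10l: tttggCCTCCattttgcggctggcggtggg
The runs of Rplp2 and Rpl39l lie across or next to the annotated start, those of Rps15a and Rps27l lie upstream of it and that of Rpl22l1 follows it.

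Reads of several members are hard to separate from pseudogenes and paralogs. The authors' counting gave 15 of the 83 genes a posterior standard deviation above 10% of the count in at least 1 library. Rpl9 (up to 30.8%), Rps27 (up to 21%) and Rpl22l1 (up to 20.1%) are among them. Counts assigned to pseudogenes named after the gene came to 145% of those of Rps6, 111% of those of Rps23, 92.5% of those of Rpl27 and 67.9% of those of Rpl31 over the 16 libraries, so levels of these genes are uncertain. The 295 annotated pseudogenes of the set summed to 1268 FPKM in late 2-cell controls and 290 FPKM after A-485, 4.37 times less.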

How the data were processed

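Total RNA-seq of 16 mouse embryo libraries (8 groups of 2) and 4 ATAC-seq peak lists were used. The authors trimmed reads with Trimmomatic 0.39, aligned them to GRCm38 with STAR 2.7.8a and deposited RSEM 1.3.1 expected counts, FPKM and TPM per gene. The shares of summed FPKM were computed from the TPM values, which were not used for other results. The deposited peak lists give a score, a fold enrichment and -log10 q-values per peak, called over both replicates. Expected counts were rounded, genes with at least 10 counts over the compared libraries were kept, and edgeR 4.0.16 (quasi-likelihood, TMM, Benjamini-Hochberg over all genes tested) gave the tests. A call required an adjusted p below 0.05, at least 2-fold and an average of 1 FPKM or more in either group. Differences between effects were interaction terms over 8 libraries. On simulated counts of the early 2-cell comparison (18790 genes) 90% of genes changed by log2 2 and 45.6% of those changed by log2 1 were recovered. Changes were put only into better counted genes, recovery needed an adjusted p below 0.05 without the fold cutoff, and 9 unchanged genes passed. Recovery of members with few counts was not simulated. Alternatives included DESeq2 1.42.0, limma 3.58.1 on log2(FPKM + 1), other scalings and leaving out each library. Every ribosomal protein gene could be named, with those of largest change in each comparison first and up to 4 examples of each other list. Members and lists were chosen with earlier results of these data known. Peaks were matched to transcript starts within 1 kb. Depth was 13206163 to 32585987 expected counts per library. ATAC-seq peak positions were read as GRCm38, which the submitters' processing notes name without assigning it to an assay. Values of some single genes are not reported here.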

Additional observations from a re-analysis of the deposited data

Results flagged for a closer look

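The A-485 effect differed between stages or from the TSA effect in tests of the difference (interaction terms in edgeR, adjusted p under 0.05). Between late 2-cell embryos and zygotes it was more negative in 79 of the 83 genes, and between late and early 2-cell embryos in 44. Against TSA at the late 2-cell stage it was more negative in 38 genes and less negative in 2. Those 2 genes were Rps20, with a difference of 0.69 on the log2 scale, which passed in 3 of 15 alternative settings, and Rpl30, with a difference of 1.33, which passed in 9 of 15.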

How the results depend on the processing

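Of 752 alternative values over 60 results, 707 stayed on the same side or within the set range, 44 moved and 1 reversed. The reversed value was the median change from zygote to early 2-cell controls, -0.99 with mitochondrially encoded mRNAs as the scale, which moved the median of all genes alike, to -1.45. With that scale the late 2-cell controls had 36 genes called higher and 7 lower against zygotes. The A-485 effect was then more negative at late than early 2-cell in 74 genes. Against TSA it was more negative in 58 and less negative in 0. Mitochondrially encoded mRNAs were 5.39% of counts in late 2-cell A-485 embryos, 3.69% after TSA and 2.37% in early 2-cell A-485 embryos. In the DMSO-treated 2-cell groups they were 2.38% to 2.55%. That scale thus lowers the late A-485 effect of all genes, so the 74 and 58 are not read as a result about the set. Genes called lower between zygotes and late 2-cell controls numbered 0 with limma and with effective lengths as an offset, a setting chosen after seeing the data. In late 2-cell A-485 embryos 1 gene was called higher with library totals as the scale and 1 with the replicate block, and 0 to 1 when a library was left out, the 1 without the first control. The A-485 effect was less negative than that of TSA in 4 genes with DESeq2, 1 with library totals, 1 with no filter on low counts, 0 with the length offset and 0 to 3 when a library was left out. By summed FPKM instead of share, chosen after seeing the data, the set was 2.966 times higher in late 2-cell controls than in zygotes and 1.077 times higher in zygotes than in early 2-cell controls. With equal numbers of the strongest peaks 21 genes had an early 2-cell DMSO promoter peak. The causes were not tested, except that fewer peaks were used in the last. Replicate numbers did not pair the samples (correlations of deviations -0.03 to 0.033). With the replicate block 58 genes fell in early 2-cell A-485 embryos, 79 in late 2-cell A-485 embryos and 82 after TSA. Without the block 55, 80 and 81 fell, beside 9.72%, 20.2% and 20.8% of all genes. With 2 libraries per group, small differences between genes cannot be resolved.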
